A study of Mus musculus with 2 samples.

Results

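The nuclear-encoded respiratory chain genes described here were the protein-coding genes of the GENCODE M21 annotation whose symbols begin with Nduf, Uqcr, Sdh (Sdha to Sdhd), Cox4, Cox5, Cox6, Cox7, Cox8 or Atp5, which gave 93 of 21911 protein-coding genes. Genes of the mitochondrial chromosome were not included. Binding of CTCF, a zinc-finger protein that recognises a long DNA motif and anchors chromatin loops together with cohesin, had been mapped by chromatin immunoprecipitation and sequencing. The tissue was forebrain of B6NCrl mice at postnatal day 0, pulverized and pooled over several dissections, with the sex not recorded. The 2 libraries, replicate 1 and replicate 2, formed 1 group with no second condition, and since both cited 1 pool of tissue, their spread may be only technical. Because the tissue was bulk forebrain, a site bound in few cells and a site bound weakly in many cannot be told apart.

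The respiratory chain passes electrons from NADH and succinate to oxygen and uses the energy to pump protons, and ATP synthase uses the proton gradient to make ATP. Complex I oxidises NADH, complex II oxidises succinate, complex III passes electrons to cytochrome c, complex IV reduces oxygen and complex V is the ATP synthase. Most subunits are encoded in the nucleus and must be made together with a few subunits from mitochondrial DNA, and neurons depend heavily on this pathway for ATP. Promoters of these genes are known for sites of the factors NRF1, GABP of the ETS family, YY1 and Sp1.

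A promoter site was an optimal-list summit within 1 kb of a transcription start site (TSS) of the gene. The optimal list held 56470 peaks and is the wider of the deposited sets that passed the irreproducible discovery rate (IDR) procedure on both libraries. Where a gene had several sites, the one with the highest signal value was taken. The signal value is the strength that the authors' peak caller wrote for each peak. Neither its scale nor the read depth behind it was stated, so it served only to rank and describe sites within a list. Intervals are 95% Wilson intervals and cover counting error only.

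Some strongest promoter sites of the members held a CTCF motif match of 0 or 1 mismatches, and the 30 bases around the match are printed for 4 of them because they carry a clear form of the motif. The motif searched was the CTCF core motif of 14 letters, on both strands, within 50 bp of the summit. Sequences are from the mm10 genome (GRCm38), read 5′ to 3′ in the direction of the motif, with the 14 matched letters in capitals.
Ndufv2 (chr17:66101878-66101907, minus strand): gtccaagtCCACTAGGTGGCAGccctttaa
Ndufaf4 (chr4:24898019-24898048, plus strand): cctcccggCCACCAGGGGGCGAcgagcgcg
Ndufa6 (chr15:82354422-82354451, plus strand): ctgaggaaCCACCAGGAGGCGCagcgtcga
Ndufv1 (chr19:4012917-4012946, minus strand): cttgggatCCAGCAGAGGGCGAcacgtgag
Ndufv2 matched with 0 mismatches, and the other members shown matched with 1. Ndufv1 and Ndufv2 encode core subunits of complex I that hold cofactors of its NADH-oxidising part, Ndufa6 an accessory subunit of complex I, and Ndufaf4 an assembly factor of complex I.

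The promoters of 3 members are shown over the 150 bases that precede the TSS nearest to the summit, in the direction of the gene, because CTCF summits of high signal lay directly in front of their start sites. Capitals mark the CTCF match, the NRF1 core CGCATGCG and the Sp1 core GGGCGG.
Ndufaf4 (chr4:24897933-24898082, plus strand): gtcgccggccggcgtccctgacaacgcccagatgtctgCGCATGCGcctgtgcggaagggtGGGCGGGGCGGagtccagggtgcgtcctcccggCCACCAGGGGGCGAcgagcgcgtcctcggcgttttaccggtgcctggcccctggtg
Ndufb10 (chr17:24724479-24724628, minus strand): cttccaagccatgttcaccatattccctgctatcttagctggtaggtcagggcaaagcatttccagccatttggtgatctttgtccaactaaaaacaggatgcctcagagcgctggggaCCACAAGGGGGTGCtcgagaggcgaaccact
Uqcrc1 (chr9:108936483-108936632, plus strand): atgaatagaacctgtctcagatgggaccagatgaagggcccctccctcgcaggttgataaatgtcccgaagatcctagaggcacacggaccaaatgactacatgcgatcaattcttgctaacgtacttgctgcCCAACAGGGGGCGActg
In Ndufaf4 the CTCF match ran from position -56 to -43 relative to the TSS, with an NRF1 core starting at -112 and overlapping Sp1 cores starting at -89 and -84. In Ndufb10, an accessory subunit of complex I, it ran from -31 to -18, and in Uqcrc1, a core protein of complex III, from -17 to -4.

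Of the 93 members, 43 had a promoter site, and signal values ran over a wide range. The share of members with a site was 46.2% (36.5 to 56.3%), against 36.8% of all protein-coding genes (8072 of 21911). The members' interval included the share of all genes only at its lower end, and no test was made over a list chosen with earlier results known. The median signal value of the strongest site was 78.4 in the members, with a lowest of 13.7 and a highest of 446, against 56.7 over all genes with a site, with a lowest of 6.08 and a highest of 622. This ratio of medians, 1.38, did not hold in other lists: it was 0.965 in the conservative list, 0.981 without replicate 1 and 0.910 without replicate 2, where more members had a weak site. A list without a replicate held the strongest peaks of the other replicate's own list, with no IDR step. Of the 43 members, 34 had 1 site, 7 had 2 sites and 2 had 3 sites, 54 in all. The strongest site reached the top IDR score of 1000 in 35 members, and 40 of the 43 were also in the conservative list. That list was smaller, with 54779 peaks, but had a site at more members, 50 of 93.

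The members just outside and just inside the top 25.0% were Uqcrh with 107 and Atp5d with 145, and 598 of the 8072 sites of all genes lay between those values (7.41%). In the top 25.0% of all genes' strongest sites, at signal values of 136 and above, stood 20 of the 43 members, which is 46.5% (32.5 to 61.1%). That share was 40.0% in the conservative list, 37.3% without replicate 1 and 37.0% without replicate 2. Among the other gene lists described below, it was 50% in citric acid cycle genes, on 6 genes with a site, and 9.09 to 36.0% in the rest. In the part of the optimal list above its median signal value of 64.3, a promoter site was found in 24 of 93 members (25.8%), against 16.9% of all genes.

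**Figure D1:**
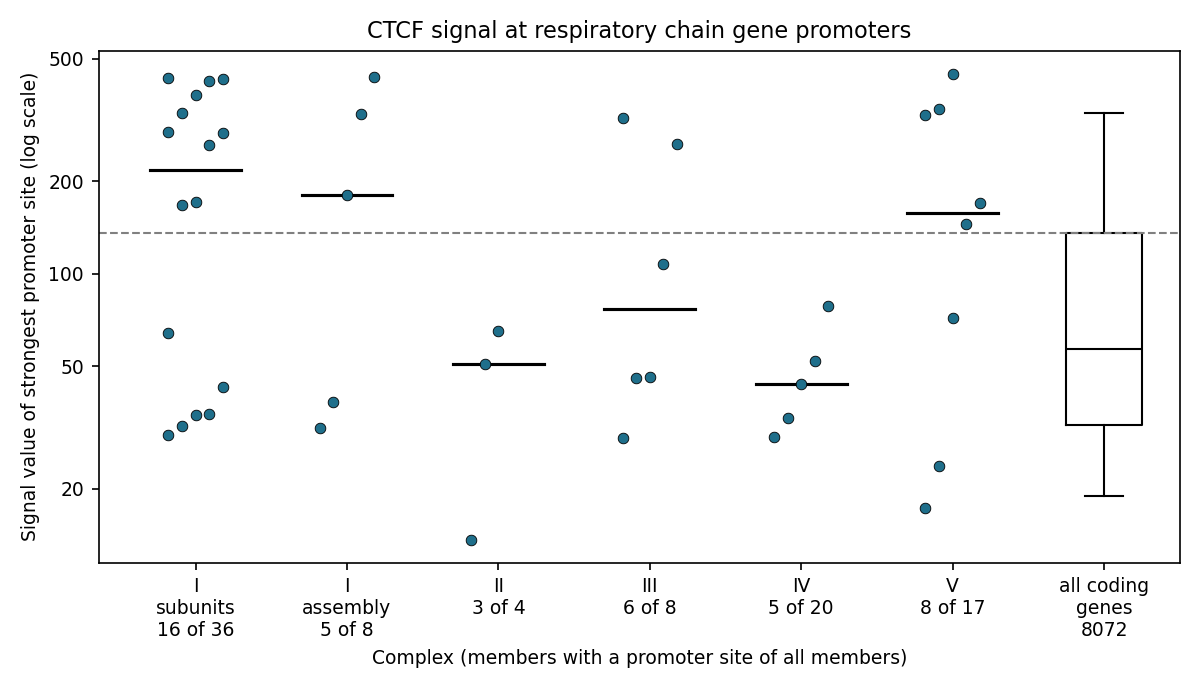
Signal value (log scale) of the strongest promoter site of each member, by complex, with bars at the medians and, at the right, a box for all 8072 protein-coding genes with a site (box from the lower to the upper quartile, whiskers at the 5th and 95th percentiles). The dashed line is the bound of the top 25.0% of all genes' sites: 10 complex I subunits, 3 complex I assembly factors, 2 complex III and 5 complex V genes lie above it, and no complex II or complex IV gene does.

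Among the complex I subunits, 16 of 36 had a promoter site (44.4%, 29.5 to 60.4%), with a median signal value of 217, and 10 of the 16 were in the top 25.0%. Core subunits, which carry out electron transfer, were found both with and without a site. Ndufv1, the NADH-binding subunit, had a signal value of 290 with the summit 127 bp upstream of the TSS. Its partner Ndufv2 had 286 with the summit 334 bp upstream. The sites of both held a motif match with 0 or 1 mismatches, and they stood close together in signal. Ndufs1, Ndufs3, Ndufs7 and Ndufs8 had no promoter site in the optimal list.

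The accessory subunits of complex I gave most of its strong sites. Ndufa6 had a signal value of 433 with the summit 112 bp upstream (chr15:82354289-82354582), with 246 in replicate 1 and 188 in replicate 2. Ndufb10 had 430 at 31 bp upstream (chr17:24724369-24724647), with 240 in replicate 1, 192 in replicate 2 and a motif match of 2 mismatches. Ndufb7 had 424 with the summit 3 bp upstream (chr8:83566533-83566807), with 228 in replicate 1 and 197 in replicate 2. Ndufb7 and Ndufb10 both belong to the membrane arm of complex I, and the Ndufb7 match needed 3 mismatches. Ndufc1, a small subunit of the membrane arm, had 381 at 47 bp upstream (chr3:51408907-51409179), with 209 in replicate 1, 173 in replicate 2 and a match of 2 mismatches. In these 4 subunits the summit lay on the upstream side of the start site, in intergenic DNA, and the value was higher in replicate 1 than in replicate 2. Since the list's median ratio of replicate 1 to replicate 2 was 0.20 on the log2 scale, a higher value in replicate 1 was usual. Ndufab1, the mitochondrial acyl carrier protein, had 262 at 42 bp upstream.

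Ndufa13 and Ndufa3 reached the top 25.0% with sites that also lay near another coding gene. Ndufa13 had 171 at a summit in one of its coding exons, 999 bp downstream of its TSS and 625 bp from that of the kinase gene Tssk6. It also had sites of 39.1 and 7.65 at 175 and 374 bp upstream. Ndufa3 had 168 at 307 bp upstream, 909 bp from the TSS of Oscar, a receptor gene. Weak sites were found at 6 subunits. Ndufa12 had 63.9, Ndufa5 had 42.9, Ndufv3 had 35.0, Ndufb9 had 34.8, Ndufb3 had 32.0 and Ndufs4 had 29.95. All of the 6 weak sites except that of Ndufb3 lay downstream of the TSS.

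Of the 8 complex I assembly factors, which help build the complex and are not part of it, 5 had a site (62.5%, 30.6 to 86.3%). Ndufaf4 had 437 with the summit 51 bp upstream (chr4:24897895-24898175), with 229 in replicate 1 and 209 in replicate 2. Ndufaf3, which works with Ndufaf4 in early assembly, had 330 (chr9:108566851-108567136), with 190 in replicate 1 and 141 in replicate 2. Its summit lay 435 bp downstream of the TSS in a UTR of Ndufaf3, and no match with up to 3 mismatches was found there. Ndufaf6 had 180 at 90 bp upstream. Ndufaf2 and Ndufaf8 had 38.2 and 31.5, both downstream of the TSS and both near another coding gene.

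Complexes II and III had the largest shares of genes with a site among the complexes, on few genes. In complex II, which is also the succinate dehydrogenase of the citric acid cycle, 3 of 4 genes had a site (75%, 30.1 to 95.4%), all weak. The membrane anchor Sdhd had 65.2, the flavoprotein Sdha had 51.0 and the iron-sulphur subunit Sdhb had 13.7, the lowest value of any member. Sdha had a second site of 21.2, and the strongest overlapping replicate peaks had the same values at both sites, 35.7 and 25.5. By nearest summit within 100 bp the sites differed. Replicate 1 had 35.7 at the second site and none at the first. Replicate 2 had 9.45 at the second and 25.5 at the first. Sdhc, the other anchor, had none. In complex III, 6 of 8 genes had a site (75%, 40.9 to 92.9%). The core proteins Uqcrc1 and Uqcrc2 had 322 and 264, with summits 22 and 42 bp upstream. The hinge protein Uqcrh had 107, Uqcr11 had 46.1, Uqcrb had 45.8 and Uqcr10 had 29.2. The core proteins thus stood apart from the small subunits in signal, and the catalytic iron-sulphur protein Uqcrfs1 had no site.

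Complex IV had the smallest share in the optimal list, with 5 of 20 genes (25.0%, 11.2 to 46.9%), an interval that overlapped those of the other complexes, and none of its strongest sites was in the top 25.0% or held a motif match with up to 2 mismatches. The 20 genes included the 8 tissue-restricted isoform genes described below, none of which had a site, so the share was higher in the rest of complex IV. Cox6a1 had the highest signal value, 78.4, at 166 bp upstream. Cox4i1 had 52.2, Cox7a2l, a factor of supercomplex assembly, had 43.7, Cox5a had 34.0 and Ndufa4, long counted with complex I and classed here with complex IV, had 29.4. Cox5a had 3 weak sites, the other 2 at 28.7 and 22.4. The weakest of these, in an intron, held a motif match with 1 mismatch.

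Complex IV also contains subunits made in versions that are restricted to certain tissues, such as heart and skeletal muscle, lung or testis, beside widely expressed ones. The 8 restricted isoform genes here were Cox4i2, Cox6a2, Cox6b2, Cox7a1, Cox7b2, Cox8b, Cox8c and Ndufa4l2. None of the 8 had a promoter site in the optimal list (0 to 32.4%). Of their 7 widely expressed partners, Cox4i1, Cox6a1 and Ndufa4 had a site, and Cox6b1, Cox7a2, Cox7b and Cox8a had none. In the conservative list 2 of the 8 restricted isoform genes had a site, Cox6b2 with 22.6 and Ndufa4l2 with 17.4, so the count of 0 held for the optimal list. The promoters of the restricted isoforms had a median ratio of observed to expected CpG of 0.37, against 0.78 over all 93 members. The part of CpG content in this difference was not tested.

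In complex V, 8 of 17 genes had a site (47.1%, 26.2 to 69.0%), and 5 of the 8 were in the top 25.0%. Atp5g2, which encodes the c subunit of the proton-driven ring, had the highest signal value of all members, 446 (chr15:102671041-102671359), with 252 in replicate 1 and 195 in replicate 2. Its summit lay 68 bp upstream, and the best match had 3 mismatches. Atp5g1 and Atp5g3 encode the same mature c subunit, and neither had a promoter site in the optimal list. Atp5mpl, a small membrane subunit, had 343 at 110 bp upstream (chr12:111966945-111967208), with 188 in replicate 1, 156 in replicate 2 and a match of 3 mismatches. Atp5k, subunit e, had 328 at 28 bp upstream (chr5:108434338-108434603), with 175 in replicate 1, 152 in replicate 2 and a match of 2 mismatches. These 3 genes encode parts of the membrane sector.

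The sites of the catalytic head and its stalk were weaker. The gamma subunit Atp5c1 had 170, with 107 in replicate 1 and 64.8 in replicate 2. The delta subunit Atp5d had 145 at 103 bp downstream. Atp5f1, subunit b of the peripheral stalk, had 71.6. Atp5j, the coupling factor of that stalk, had 23.8, and the alpha subunit Atp5a1 had 17.4. Replicate 1 had no called peak at the Atp5a1 site, where replicate 2 had 14.2. Atp5b, which encodes the catalytic beta subunit, had no site.

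Most strong member sites lay just in front of the start site. Of the 20 members in the top 25.0%, 15 had the summit at most 150 bp upstream of the TSS (75%, 53.1 to 88.8%), against 36.4% of all genes in the top 25.0%. The bound of 150 bp was not planned in advance, and these shares were not recounted with other bounds or lists. Of the 23 weaker members 2 did (8.70%, 2.42 to 26.8%), against 21.2% of all genes below the top 25.0%. The share with a summit within 150 bp on either side was 80.0% in these members (16 of 20), against 45.2% of all genes in the top 25.0%. Among the 23 weaker members it was 34.8% (8 of 23), against 39.0% of all genes below the top 25.0%. Over all 43 members the summit was upstream in 28 (65.1%), against 56.4% of all genes with a site. In the other gene lists described below, it was upstream in 83.3% of citric acid cycle genes, 76.0% of cytosolic ribosomal proteins and 73.9% of assembly factors. In the remaining lists the share was 54.5 to 58.3%, so upstream summits were not particular to the members. Summits within 150 bp on either side made up 55.8% in the members, 33.3 to 52.2% in those lists and 40.6% over all genes. Those lists were not split by signal. The median distance in either direction was 127 bp in the members, against 210 bp over all genes.

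**Figure D2:**
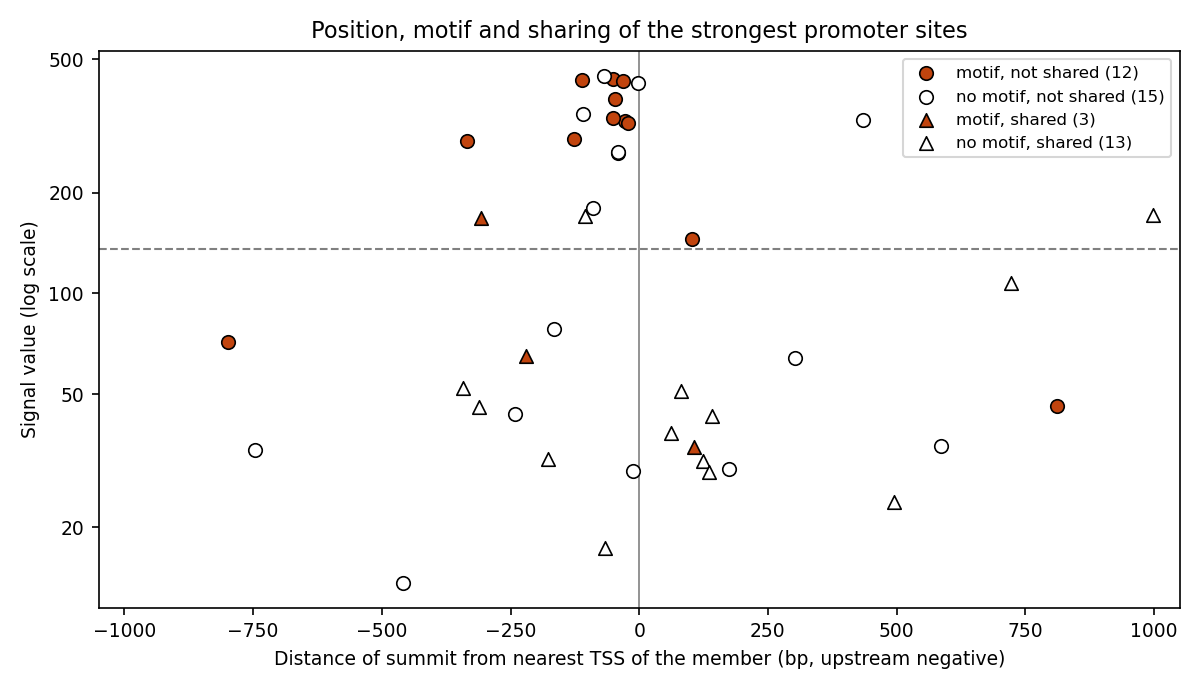
Signal value (log scale) of the strongest promoter site of the 43 members against the distance of its summit from the nearest TSS of the member in bp, upstream negative; filled symbols held a CTCF motif match with up to 2 mismatches, triangles were also within 1 kb of a TSS of another protein-coding gene, and the dashed line is the bound of the top 25.0%. Of the 20 members above that line, 15 lie at most 150 bp upstream of the TSS (75%), against 36.4% of all genes in the top 25.0%, and 11 of the 23 weaker sites are upstream. The bound of 150 bp was not planned in advance.

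A motif match with up to 2 mismatches was commoner at sites in the top 25.0% than below, in the members and over all genes. A match with up to 2 mismatches was found in 15 of 43 members (34.9%, 22.4 to 49.8%), against 38.0% of all genes with a site. In windows 1000 bp to either side of the summits, 1 and 0 of the 43 members had one, against 2.55% and 2.85% of all genes. Among members in the top 25.0%, 11 of 20 held the match (55.0%), against 66.8% of all genes there. Among the weaker members 4 of 23 held it (17.4%), against 28.4% of all genes below. Allowing 3 mismatches gave 76.7% of members and 72.9% of all genes, but also 18.8% and 18.7% of the windows beside all genes' summits. In 11 of the 15 members with a match, the motif was on the strand of the gene (73.3%, 48.0 to 89.1%), against 56.1% of all genes with a match, a share within the members' interval.

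Matches with 2 mismatches occurred at sites of very different signal. Ndufb10 and Atp5k, with 430 and 328, are printed beside Atp5f1 and Uqcr11, with 71.6 and 46.1, as examples.
Ndufb10 (chr17:24724488-24724517, minus strand): gctggggaCCACAAGGGGGTGCtcgagagg
Atp5k (chr5:108434455-108434484, minus strand): tcctccagTCGCTAGGGGGCAGcgctttca
Atp5f1 (chr3:105960887-105960916, minus strand): catggaggCCAAAAGATGGCACtggcttcc
Uqcr11 (chr10:80406003-80406032, minus strand): ggaagtctCCAGAAGATGGTGCtcagggtc
Counting from 1 at the first capital, the mismatches were at positions 5 and 12 in both Ndufb10 and Uqcr11, at 1 and 3 in Atp5k, and at 4 and 5 in Atp5f1. A strong and a weak site thus shared the same mismatch positions, and no relation of position to signal was computed. Over all genes the median signal value was 254 with 0 mismatches, 169 with 1, 79.7 with 2, 49.5 with 3 and 37.6 where no match with up to 3 was found. In the members it was 433 on 3 genes with 1 mismatch, 156 on 10 with 2, 44.4 on 18 with 3 and 64.7 on 10 with no match.

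Many member promoters stood head to head with another gene, and their sites were weak. A head-to-head partner here was a protein-coding gene on the opposite strand whose TSS lay within 1 kb, at the upstream side or overlapping the member's start region. Such a partner stood beside 28 of the 93 members (30.1%), against 9.63% of all protein-coding genes. Of these 28 members 14 had a promoter site (50%, 32.6 to 67.4%), against 58.6% of all genes with such a partner. Of the 65 members without one 29 had a site (44.6%, 33.2 to 56.7%), against 34.5% of all genes without one. In the members with a partner 1 of the 14 sites was in the top 25.0% (7.14%), against 18.4% of such sites over all genes. In the members without a partner 19 of 29 were (65.5%), against 26.2% over all genes. The member with a partner in the top 25.0% was Atp5c1, whose summit lay 9 bp from the TSS of Kin, a gene for a DNA-binding protein.

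Counted by the site itself, 16 of the 43 strongest member sites (37.2%, 24.4 to 52.1%) were also within 1 kb of a TSS of another protein-coding gene, against 16.8% of all genes' sites. For 14 of the 16 that gene was the head-to-head partner. The median signal of these 16 was 44.4, against 48.6 for shared sites of all genes. The 27 sites not shared had a median of 264, against 59.4 over all genes, and 17 of the 27 (63.0%) were in the top 25.0%, against 26.02% over all genes. The gap between shared and unshared sites was thus wider in the members than over all genes, as a description of these sites. Among the gene lists described below, shared sites made up 41.0% in mitochondrial ribosomal proteins, 39.1% in assembly factors and 36.4% in other subunits and electron carriers. They made up 33.3% in citric acid cycle genes and 16.7% in regulators, and cytosolic ribosomal proteins had the lowest share. Sharing at the members' level was thus not particular to them, and head-to-head partners were not counted in those lists.

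Positions of the shared sites relative to the neighbouring gene are given for 3 pairs, chosen after their values were seen. The Sdhd site, in a coding exon of Timm8b, lay 121 bp from the TSS of that gene, which encodes a chaperone of mitochondrial protein import. The Atp5j site lay in a UTR of Gabpa, 84 bp from its TSS and 494 bp from that of Atp5j, and Gabpa encodes the DNA-binding subunit of GABP. The Cox4i1 site lay 199 bp from the nearest TSS of Emc8 or the overlapping gene model Gm27021. The remaining shared sites were those of Sdha with Ccdc127, Uqcrh with Lrrc41, Uqcrb with Gm10767, Uqcr10 with Zmat5, Ndufa5 with Asb15, Ndufb3 with Fam126b, Ndufb9 with Tatdn1, Ndufaf2 with Ercc8, Ndufaf8 with Tepsin and Atp5a1 with Haus1. Such a site cannot be credited to one gene of the pair from position alone.

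The replicates gave like values at the strong member sites. After centring on the list's median ratio, the log2 ratio of replicate 1 to replicate 2 had a median of 0.04 and an SD of 0.38 over the 42 strongest member sites with a peak in both, against an SD of 0.55 over all genes' strongest sites. It ran between -0.77 at Cox5a and 1.47 at Ndufs4, where replicate 1 had 24.9 and replicate 2 had 7.83. Secondary sites were less even: the second site of Uqcrb gave 23.7 in replicate 1 and 3.35 in replicate 2, and its centred ratio was 2.62. The second site of Cox5a gave 6.83 in replicate 1 and 20.7 in replicate 2, and its centred ratio was -1.80. These values rank the weak sites only loosely.

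**Figure D3:**
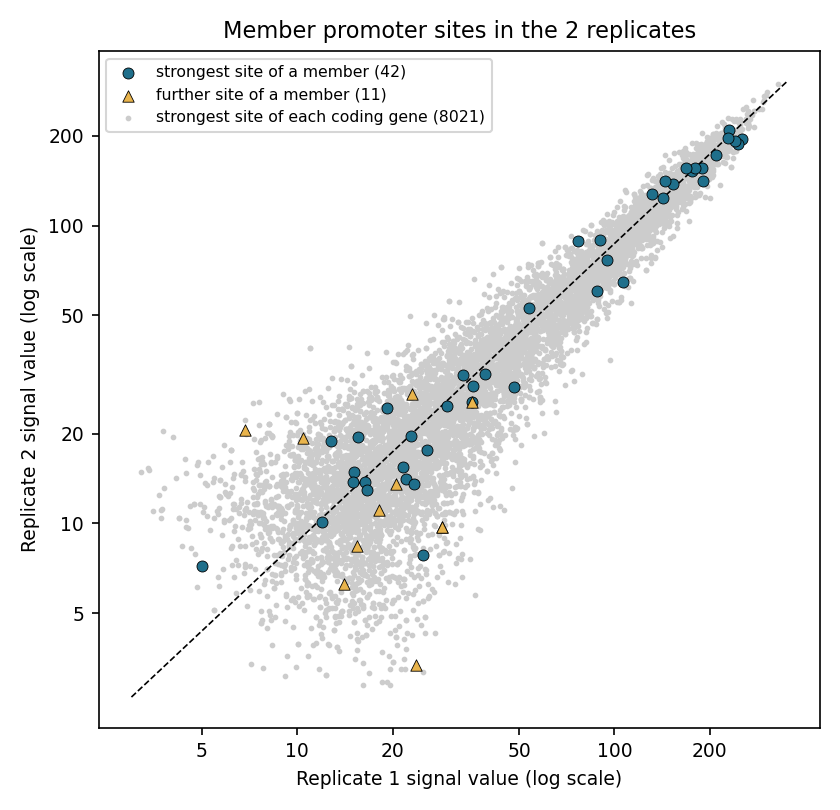
Signal value in replicate 2 against that in replicate 1 (both log scales) at the 42 strongest member sites and 11 further member sites with a peak in both replicates, over all protein-coding genes' strongest sites (grey); the dashed line is the median ratio of the optimal list. Strong member sites lie along the line, and the widest departures are weak further sites, such as that of Uqcrb with 23.7 in replicate 1 and 3.35 in replicate 2.

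The remaining 50 members had no promoter site. Distances to the nearest summit had a median of 9906.5 bp in these members, against 14392 bp over all genes without a site. Within 5 kb, 58 of the 93 members had a summit (62.4%), against 52.3% of all genes. The 35 members without one were Cox4i2, Cox5b, Cox6b1, Cox6b2, Cox6c, Cox7a2, Cox7b2, Cox7c, Cox8a, Cox8c, Atp5e, Atp5g1, Atp5j2, Atp5s, Sdhc, Uqcrq, Ndufa1, Ndufa8, Ndufa9, Ndufa10, Ndufa11, Ndufaf1, Ndufaf5, Ndufaf7, Ndufb2, Ndufb4, Ndufb5, Ndufb6, Ndufb8, Ndufb11, Ndufc2, Ndufs3, Ndufs5, Ndufs6 and Ndufs8. The farthest was Cox7c, at 191379 bp. Just inside 1 kb by nearest summit were Uqcr11 at 812 bp, Atp5f1 at 799 bp and Uqcrh at 723 bp, and just outside were Atp5l at 1011 bp, Atp5h at 1021 bp and Ndufs7 at 1058 bp.

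The absence of a listed site was not an absence of called peaks. Of the 50 members, 27 (54.0%) had a peak at a q-value of 0.05 in both replicates within 1 kb of a TSS, against 23.0% of all genes without a site. The peaks of the replicates were not required to overlap or to lie at the same TSS. These peaks were weak, with signal values of 5.89 to 19.03 in replicate 1 (median 9.46) and 4.91 to 13.9 in replicate 2 (median 8.09). Another 10 of the 50 had no such peak in either replicate, among them 5 of the 8 tissue-restricted isoform genes. The conservative list, in which 50 of 93 members had a site (53.8%), against 35.5% of all genes, added Atp5g1, Atp5j2, Atp5s, Cox6b2, Ndufa2, Ndufa4l2, Ndufaf5, Ndufs7 and Ndufs8 at 13.8 to 32.2. It lacked Atp5a1 and Ndufs4. Weak sites therefore entered or left the count with the list. The members in the top 25.0% numbered 20 in the conservative list as well, but as 40.0% of its 50 members with a site.

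The promoter windows ran from 250 bases before to 50 after the outermost 5′ end of each gene, which can differ from the TSS nearest to a summit. Members and all genes were alike in median GC content, but a smaller part of the members lay at the lowest GC content. The members had higher shares of 3 of the 4 short motifs searched. The median GC content was 56.0% in the members, against 55.0% over all genes, and the median ratio of observed to expected CpG was 0.78, against 0.52. The NRF1 core CGCATGCG was in 7 of 93 members (7.53%), against 2.61% of all genes. The ETS core CCGGAAG was in 18 (19.4%), against 10.8%, the YY1 core AAGATGGC in 9 (9.68%), against 2.91%, and the Sp1 core GGGCGG in 40 (43.0%), against 43.0%. Among genes with a CTCF site, the Sp1 core was in 18 of 43 members (41.9%, 28.4 to 56.7%), against 60.2% of all genes, with a median CpG ratio of 0.74 in both. Both strands were searched, and letters of the Sp1 and YY1 cores can fall inside a CTCF match. A match describes letters and not binding.

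The ETS core was in 1 of 20 members with a CTCF site in the top 25.0% (5.00%, 0.888 to 23.6%), 6 of 23 with a weaker site (26.1%, 12.5 to 46.5%) and 11 of 50 with no site (22.0%, 12.8 to 35.2%), with overlapping intervals, against 15.6% of all genes with a site and 7.93% of all genes without one. From 500 bases before to 100 after the TSS the counts were 4 of 20 (20%), 9 of 23 (39.1%) and 13 of 50 (26%), against 19.9% of all genes with a site. The share in the first set was then level with that of all genes with a site, but still the lowest among the members. Since CTCF sites over all genes became commoner with GC content, the members were also counted in 4 classes of GC content with about equal numbers of genes. From the lowest to the highest, 5 of 10, 9 of 26, 19 of 42 and 10 of 15 members had a site, against 13.4%, 28.9%, 47.1% and 57.7% of all genes. The members' share stood furthest above that of all genes in the lowest group, at 50% on 10 members. In the others it was 34.6%, 45.2% and 66.7%. The lowest group held 10 of the 93 members, but 5459 of all 21911 genes, and the part of this in the difference was not tested.

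Other genes that serve the respiratory chain were counted in the same way. Of 38 assembly factors outside the Nduf family, 23 had a site (60.5%, 44.7 to 74.4%), led by Cox14 with 350, Sco2, a copper chaperone of complex IV, with 284, and Cox19 with 272. Of 17 other subunits and electron carriers, 11 had one (64.7%, 41.3 to 82.7%), led by Coq2 of ubiquinone synthesis with 146, cytochrome c (Cycs) with 125 and cytochrome c1 (Cyc1) with 61.6. Of 17 regulators of respiratory genes and mitochondrial DNA, 12 had one (70.6%, 46.9 to 86.7%), led by Gabpb2 with 177, the mitochondrial RNA polymerase Polrmt with 138 and Nrf1 with 136. Of 13 citric acid cycle genes, 6 had one (46.2%, 23.2 to 70.9%), led by Fh1 with 223, Idh3g with 175 and Suclg1 with 148. Mitochondrial ribosomal proteins gave 39 of 78 (50%), led by Mrps33 with 416, Mrpl34 with 396 and Mrps16 with 363. Cytosolic ribosomal proteins gave 50 of 91 (54.9%), led by Rplp0 with 414, Rpl5 with 400 and Rpl26 with 399. Every one of these lists stood above the 36.8% of all genes, so a share of this size was not particular to the respiratory chain members. The exception under another setting was the list of other subunits and electron carriers, with 2 of 17 (11.8%) in the part of the optimal list above its median, against 16.9% of all genes.

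**Figure D4:**
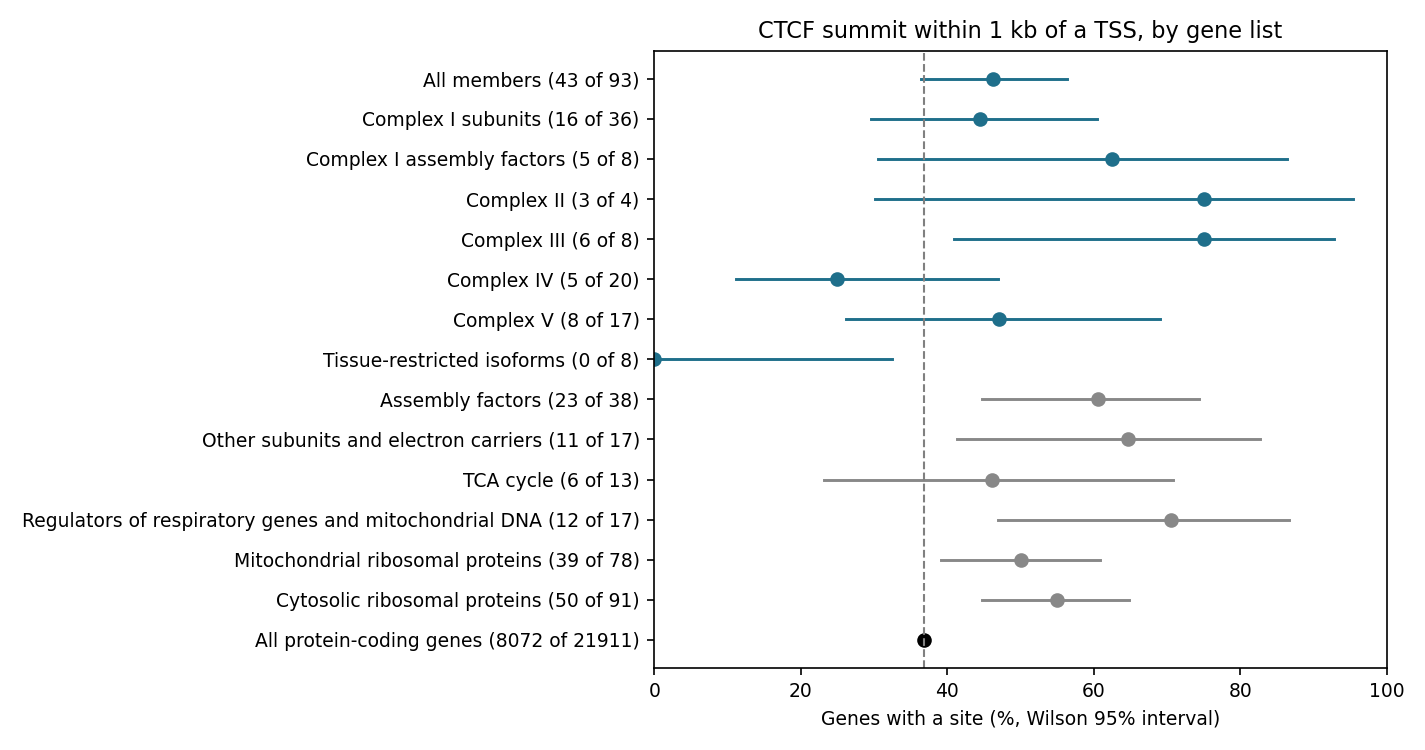
Percent of genes with a promoter site (x axis, points with 95% Wilson intervals that cover counting error only) for the members and their complexes (blue), other lists (grey) and all protein-coding genes (black, with the dashed line at 36.8%). The members reach 46.2%, complex IV 25.0%, the tissue-restricted isoforms, which are counted within complex IV, 0 of 8, and the other lists 46.2 to 70.6%.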

How the data were processed

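The files were lists of CTCF peaks on mm10, per the labels: 1 list per replicate, 1 called on both libraries together, and the optimal and conservative IDR lists. Aligner, peak calling software and sequencing depth were not given in the sources used here. The deposited lists gave a signal value per peak, a score that in the IDR lists reached 1000, −log10 of a q-value, and a summit offset in bp from the peak's start. The authors' signal scale was not stated. Replicate lists held exactly 300000 peaks each, so list length set their weakest entries.

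Summits were assigned to TSSs of the GENCODE M21 basic set. Atp5o has 2 gene records and was counted once. Peaks on unplaced contigs were left out. A replicate's value at a site was that of its strongest overlapping peak. Log2 ratios of the replicates were centred on the median over the optimal list. Distances, motif matches, sharing and head-to-head partners were counted for members and for all protein-coding genes. Head-to-head counts and the split by signal were made after values were seen. No test was made, because there was 1 group. Members with a site were named, the strongest with positions and both replicate values, except for a result not reported here, along with the nearest cases on each side of 1 kb and up to 3 leading genes of each other list. The members and lists were chosen with earlier results of these data known. The names Coa1 and Dmac2l were not matched in the annotation. Results were also computed with other windows, TSS sets, member rules and motif settings, with either replicate by itself, with the conservative list and with optimal-list peaks above the median signal. For a replicate by itself, the 56462 peaks of highest signal value in its own list were taken, without the IDR procedure. The motif scan and the assignment of summits were tested on simulated data. Work was done in Python 3.11.15 (pandas 2.3.3, numpy 2.4.6, pysam 0.24.0, scipy 1.17.1, matplotlib 3.10.9), and the genome was indexed by samtools 1.23.1.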

Additional observations from a re-analysis of the deposited data

How the results depend on the processing

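Of 87 values recomputed under alternatives, 64 were labelled the same and 23 moved. Counts of genes or sites were the same if within a fixed fold range of the main count. Such a count could lie outside the main interval, as did the members with a site within 5 kb (62.4%). The other values were the same if within the replicate spread or the interval of the main value. The count of members with a site was 37 to 58 under 11 alternatives and 24 in the part of the list above its median signal value. The members' median signal value was 1.38 times that of all genes, and this ratio was unstable: it was 0.965 in the conservative list, 0.910 to 0.981 with 1 replicate left out, 1.95 in the stronger part of the list, 1.497 within 500 bp, 1.31 within 2 kb, 2.54 within 5 kb and 1.80 with Sdhaf1 to Sdhaf4 added. The count of members in the top 25.0% was 17 to 21, on a changing number of members with a site. As a share it was 46.5% in the optimal list, 40.0% in the conservative list, 37.3% without replicate 1 and 37.0% without replicate 2. Within 500 bp it was 48.7%. Among unshared member sites the share was 63.0%, 53.1%, 48.5%, 51.5% and 69.2% in the same order. Shared sites in the top 25.0% numbered 1 within 500 bp, against 3. The motif share was 54.2% in the stronger part of the list, 60.3% within 5 kb, 11.6% with at most 1 mismatch and 76.7% with at most 3. The median summit position, -42 bp, was -50.5 bp in the stronger part and -23 to -35 bp with 1 replicate left out. Shared sites made up 20.8% in the stronger part. The Sp1 core was in 53.8% of members from 500 bases before to 100 after the TSS. In the stronger part of the list, sites were left at 13 assembly factors, 2 other subunits and carriers, 4 regulators, 19 mitochondrial and 29 cytosolic ribosomal protein genes. The causes were not tested. The splits by the top 25.0% were chosen after seeing the data. No paired analysis was possible because there was 1 group. With depth not given, weak sites such as those under 20 cannot be ranked firmly.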
